A study of Mus musculus with 6 samples.

Results

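The ribosome-associated RNA of medial prefrontal cortex (mPFC) D2 neurons without the Gsk3b knockout was described here from the 3 Ctrl libraries of a series of 6 libraries. The members were the Ctrl columns of the deposited FPKM table (fragments that map to a transcript, scaled by transcript length and library size), and the FPKM values of all transcripts of a gene were added to give a gene total. The table held 115220 transcripts of 47729 genes. A gene total was above 0 in at least 1 Ctrl library for 24947 genes and in all 3 for 16471, and its mean reached 1 FPKM for 13072 genes, of which 11420 were protein-coding.

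All Ctrl mice were adult D2Cre/LSL-Flag-Cas9/RiboTag males of the C57BL/6 strain that had received AAV GFP in the mPFC some weeks before tissue was taken. The D2Cre allele is a bacterial artificial chromosome transgene that carries Cre under the control of the dopamine D2 receptor gene, so the D2 cells of these control mice expressed Flag-tagged Cas9 as well as the tagged ribosomal protein, but no guide RNA. Ribosomes that carried hemagglutinin-tagged Rpl22 were immunoprecipitated (RiboTag-IP) and the RNA bound to them was sequenced. RNA of the whole tissue before immunoprecipitation was not analysed here, so the levels are those in the precipitate and no enrichment over tissue can be given. The labels do not say whether a library came from a single mouse or from pooled mice, so the SD given with each mean measures how far these 3 libraries differ, and part of that may be technical.

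Dopamine D2 receptors are coupled to inhibitory G proteins and, through beta-arrestin, to the Akt and GSK3 pathway. In the striatum they mark the medium spiny neurons of the indirect pathway. In the mPFC they are found in several classes of cells, among them pyramidal neurons that release glutamate and interneurons that release GABA. RiboTag-IP reads out the RNA that is loaded on ribosomes in the cells that express Cre, together with RNA that is carried along unspecifically from other cells.

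The 3 libraries resembled each other across genes, with differences that were largest for genes of low level. Over the 13072 genes, Pearson's r of log2(FPKM + 1) was 0.935 between replicates 1 and 2, 0.926 between replicates 1 and 3 and 0.957 between replicates 2 and 3. These are correlations across genes, which are not independent replicates. The median coefficient of variation of a gene total was 20.2%, and among protein-coding genes it was 25.9% at a mean of 1 to 10 FPKM, 14% at 10 to 100 FPKM and 11.5% above 100 FPKM. Replicate 1 held the fewest genes at 1 FPKM or more (12616, against 13410 in replicate 2 and 12938 in replicate 3).

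The highest protein-coding gene totals were those of a calmodulin gene and of Hsp90 chaperone genes. Calm2 (chr17:87433412-87446935, GRCm38), which encodes calmodulin, had the highest mean gene total, with 3361 FPKM in replicate 1, 2116 in replicate 2 and 2147 in replicate 3. The cytosolic Hsp90 chaperones Hsp90aa1 and Hsp90ab1 followed at 2299 ± 401 FPKM and 2289 ± 89.0 FPKM (SD, n = 3 for these and all later means), with values that overlapped those of Calm2 in both cases. Calm3 (774 ± 121 FPKM), which also encodes calmodulin, was among the 20 highest as well. App, the amyloid precursor protein gene, measured 1216 ± 65.6 FPKM.

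Several of the 20 highest genes are hallmarks of neurons. Snap25, a part of the SNARE complex that fuses synaptic vesicles with the membrane, reached 1118 FPKM in replicate 1, 1038 in replicate 2 and 1117 in replicate 3. Nrgn, a postsynaptic calmodulin-binding protein of pyramidal neurons, had 705 ± 192 FPKM, and Chgb, a protein of dense core vesicles, had 706 ± 127 FPKM. Eef1a2, the translation elongation factor of neurons and muscle, was at 651 ± 57.9 FPKM. The peptide gene Sst ranked the tenth of all protein-coding genes.

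Further members of the 20 highest were the stress and ubiquitin genes Hspa8 (1098 ± 41.7 FPKM) and Ubb (1162 ± 154 FPKM), the glycolytic enzyme gene Aldoa (831 ± 64.4 FPKM), the 14-3-3 genes Ywhah (740 ± 196 FPKM) and Ywhaz (627 ± 9.93 FPKM), Sparcl1 (718 ± 26.7 FPKM), Atpif1 (707 ± 208 FPKM), Bex2 (627 ± 225 FPKM) and mt-Co1 (631 ± 143 FPKM). Sparcl1 encodes a secreted matrix protein and Atpif1 an inhibitor of the mitochondrial ATP synthase. The 20 highest genes held between 6.87% and 7.67% of all protein-coding FPKM and the 100 highest between 17.3% and 18.4%, so the profile was spread over many genes.

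**Figure D1:**
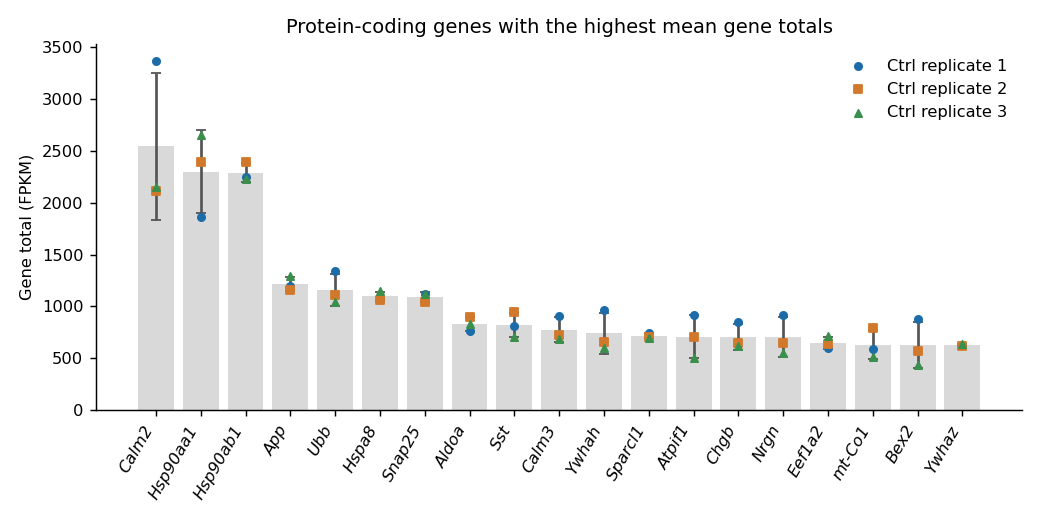
Gene totals in FPKM (vertical axis) of genes among the 20 protein-coding genes with the highest mean, in order of the mean. Bars are means of the 3 Ctrl libraries, error bars are SD and each point is a library; Calm2 and both Hsp90 genes stood above the rest, and replicate 1 was the highest library for Calm2 and the lowest for Hsp90aa1.

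Short RNAs that are not translated took a large part of the summed FPKM and a small part of the fragments. Loci annotated as miRNA held 36.4%, 35.3% and 19.4% of summed FPKM in replicates 1, 2 and 3, and protein-coding genes held 48.9%, 52.4% and 70.6%. After each FPKM value was multiplied by the annotated transcript length, which estimates the fragments behind it, protein-coding genes held 92.8%, 93.4% and 95.9%. The leading locus, Gm23935, was listed at 148027 FPKM, 137332 FPKM and 53549 FPKM, followed by AL626808.1 (29339 ± 12214 FPKM) and Gm24270 (15446 ± 8888 FPKM), and all 3 are predicted loci with the miRNA biotype. Rpph1, the RNA component of RNase P, varied from 2579 FPKM in replicate 3 to 19836 FPKM in replicate 1, and the mitochondrial ribosomal RNA mt-Rnr2 measured 5847 ± 1568 FPKM. Replicate 3 was the lowest library for each of these 5 RNAs.

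Drd2, the gene whose regulatory sequence drives Cre in these mice, was detected in all 3 libraries at a modest and widely varying level. Drd2 (chr9:49340627-49408177, GRCm38) measured 1.58 FPKM in replicate 1, 6.02 in replicate 2 and 14.1 in replicate 3, for a mean of 7.22 ± 6.33 FPKM. The 3 values were well apart, with replicate 3 the highest and replicate 1 the lowest, and the highest was 8.89 times the lowest. Of the 12834 genes at a mean of 1 FPKM or more with no library at 0, 1.91% had a range this wide or wider, and the median gene had a range of 1.47 times. Drd2 ranked 6795 of 21697 protein-coding genes by its mean, and its rank within a library moved from 10186 in replicate 1 to 7515 in replicate 2 and 4454 in replicate 3.

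Among the other dopamine receptors, Drd1 was present and the remaining members were near or at 0. Drd1 (chr13:54051183-54055705), the receptor that couples to stimulatory G proteins, measured 2.83 FPKM, 3.40 FPKM and 4.98 FPKM in replicates 1, 2 and 3. Its values lay within the range of those of Drd2, and the ratio of Drd2 to Drd1 was 0.560, 1.77 and 2.82 in the 3 libraries, so Drd1 was the higher of the pair in replicate 1 and Drd2 in replicates 2 and 3. Drd5 was low in each library (0.436 FPKM, 0.264 FPKM and 0.122 FPKM), Drd4 was listed at 0 in replicates 1 and 2 and at 0.379 FPKM in replicate 3, and Drd3 was listed at 0 in all 3.

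Most genes that are enriched in striatal medium spiny neurons were, like Drd2, highest in replicate 3. Penk (chr4:4133531-4138819), which encodes the enkephalin precursor of indirect pathway neurons, measured 96.5 FPKM, 112 FPKM and 295 FPKM in replicates 1, 2 and 3. Ppp1r1b, which encodes the dopamine-regulated phosphatase inhibitor DARPP-32, measured 25.3 FPKM, 25.6 FPKM and 48.5 FPKM. For both genes replicates 1 and 2 were close together and replicate 3 was the highest. Adora2a, the adenosine receptor of indirect pathway neurons, was listed at 0 in replicate 1 and measured 1.29 FPKM in replicate 2 and 5.27 FPKM in replicate 3. The orphan receptor gene Gpr6 (0.381 FPKM, 1.40 FPKM and 3.62 FPKM) had a range of 9.51 times.

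Of the 16 genes of the medium spiny neuron list, 15 had a mean of 1 FPKM or more, and 13 of these were highest in replicate 3 while 12 were lowest in replicate 1. Over all genes at 1 FPKM or more, 37.9% were highest in replicate 3 and 46.5% were lowest in replicate 1. Adora2a and Gpr6 reached a mean of 1 FPKM only through replicate 3, the library in which they were then counted as highest. The exceptions to the pattern of highest values were Meis2 (34.4 FPKM, 32.6 FPKM and 31.5 FPKM), a homeobox transcription factor, and Tac1 (8.25 FPKM, 17.4 FPKM and 15.1 FPKM), the substance P precursor. Isl1, a transcription factor of direct pathway and cholinergic neurons, was at 0.314 ± 0.395 FPKM. The summed level of the list was 242 FPKM, 273 FPKM and 530 FPKM in replicates 1, 2 and 3. Many of these genes are also expressed in cortical neurons, Drd2 and Drd1 are members of the list, and whether striatal cells contributed to the Drd2 level was not tested.

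**Figure D2:**
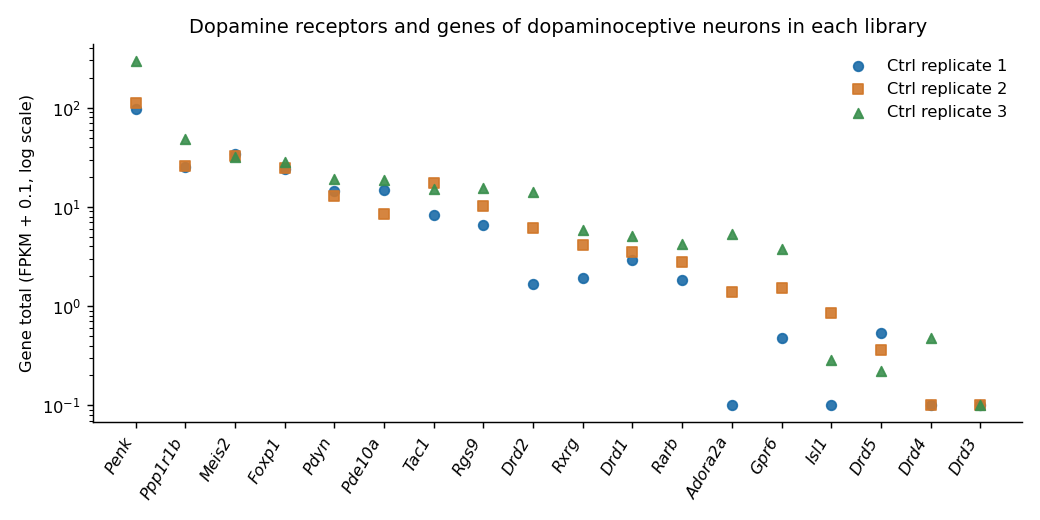
Gene totals (FPKM + 0.1, log scale) of genes on the medium spiny neuron list and of the remaining dopamine receptors, in order of the mean within each of these groups. Each symbol is a Ctrl library; replicate 3 was the highest library for 13 of the 15 list genes at 1 FPKM or more, and Drd2 ran from 1.58 FPKM in replicate 1 to 14.1 FPKM in replicate 3.

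The genes of the D2 signalling list, which holds stimulatory as well as inhibitory G protein subunits, were all present. The G protein genes named here varied less than Drd2, as most genes did. A range as wide as that of Drd2, or wider, was found in 1.91% of the 12834 genes given above. Not every member was steady. Ppp1r1b and Rgs9 (6.53 FPKM, 10.2 FPKM and 15.5 FPKM) belong to this signalling list as well as to the medium spiny neuron list. All 27 genes of that list had a mean of 1 FPKM or more, as did 11420 of 21697 protein-coding genes. The median of the list was 41.9 FPKM, beside a median of 8.65 FPKM over the 13072 genes. Gnas, which encodes the stimulatory G protein alpha subunit, measured 220 FPKM, 220 FPKM and 218 FPKM. Gnao1, the most abundant inhibitory-type alpha subunit of the brain, had 154 ± 10.5 FPKM, and Rgs4, which speeds the return of G proteins to the inactive state, had 103 ± 1.48 FPKM. Gnal, the stimulatory subunit that is typical of striatum and olfactory neurons, was lower (45.4 ± 8.60 FPKM) than any library's value of Gnas.

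In the Akt and GSK3 branch the Akt and beta-arrestin pairs named here differed in level, and the GSK3 pair overlapped. Gsk3b (chr16:38089001-38246084), the gene that the series targets in its other group, measured 35.6 FPKM, 53.8 FPKM and 56.5 FPKM in these control libraries, and Gsk3a measured 39.8 FPKM, 43.8 FPKM and 48.5 FPKM, so the ranges of the pair overlapped. Akt1 (31.2 ± 1.43 FPKM) lay above Akt2 (10.05 ± 2.74 FPKM) in every library. Arrb1 (17.0 ± 1.69 FPKM) was higher than Arrb2 (9.61 ± 1.03 FPKM), the beta-arrestin that scaffolds Akt and GSK3 downstream of the D2 receptor, and their values did not overlap. Adcy1 (53.0 ± 4.46 FPKM) exceeded Adcy5 (12.4 FPKM, 12 FPKM and 19.4 FPKM), the adenylyl cyclase that predominates in striatum.

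The precipitated RNA held the markers of both excitatory and inhibitory neurons. Slc17a7 (chr7:45163949-45176142), the vesicular glutamate transporter of cortical pyramidal neurons, measured 262 FPKM, 273 FPKM and 264 FPKM, a range of 1.04 times. Gad1 (chr2:70553072-70602014), the main enzyme of GABA synthesis, measured 95.7 FPKM, 237 FPKM and 137 FPKM, a range of 2.48 times. Slc17a7 was thus nearly the same in the 3 libraries, whereas Gad1 was the highest in replicate 2 and the lowest in replicate 1. Gad2 measured 42.5 FPKM, 62.4 FPKM and 65.8 FPKM and Slc32a1, the vesicular GABA transporter, 29.5 FPKM, 41.8 FPKM and 43.4 FPKM. Both were lowest in replicate 1 as well, but unlike Gad1 they were highest in replicate 3.

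The ratio of Slc17a7 to the sum of Gad1 and Gad2 was 1.9 in replicate 1, 0.910 in replicate 2 and 1.3 in replicate 3 (1.37 ± 0.497), and the ratio of Slc17a7 to Slc32a1 was 7.16 ± 1.51. These compare RNA levels and are not shares of cells, since cells of different classes differ in the amount of each RNA. In a precipitate, fewer cells of a type and less ribosome-bound RNA per cell cannot be told apart. The other vesicular glutamate transporters were low, with Slc17a6 at 1.31 ± 0.390 FPKM and Slc17a8 at 0.662 ± 0.221 FPKM.

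Genes that define catecholamine, serotonin, histamine and acetylcholine neurons were at or near 0. Th, the rate-limiting enzyme of dopamine synthesis, was listed at 0, 0.552 FPKM and 1.25 FPKM, and Ddc, the next enzyme, at 0.357 FPKM, 1.01 FPKM and 1.14 FPKM. The dopamine transporter Slc6a3, the vesicular monoamine transporter Slc18a2 and the noradrenaline-to-adrenaline enzyme Pnmt were listed at 0 in all 3 libraries, and Dbh and Slc6a2 averaged 0.0241 FPKM and 0.0416 FPKM. None of the 7 catecholamine genes, the 4 serotonin and histamine genes or the 3 cholinergic genes reached a mean of 1 FPKM. Among these, Tph2, Tph1 and Chat averaged 0.0884 FPKM, 0.0335 FPKM and 0.0733 FPKM, Slc18a3 and Slc5a7 averaged 0.0521 FPKM and 0.156 FPKM, and Hdc and Slc6a4 were listed at 0. Of the glycine transporters, Slc6a9 measured 3.90 ± 0.724 FPKM and the neuronal Slc6a5 0.00288 ± 0.00498 FPKM.

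Peptide precursor genes held the highest levels among the transmitter genes. Sst (chr16:23889573-23890958), the somatostatin precursor, measured 816 FPKM, 942 FPKM and 709 FPKM, and Cck, the cholecystokinin precursor, measured 470 ± 49.6 FPKM. Npy measured 143 ± 25 FPKM, below Cck in every library, and its values overlapped those of Penk, given above, and of the granin Scg2 (140 ± 10.3 FPKM). The granin Chga measured 176 ± 12.2 FPKM. Of 30 peptide precursor genes, 21 reached a mean of 1 FPKM, beside 11420 of 21697 protein-coding genes. Another 6 of the 30 were listed at 0 in every library, namely Avp, Gal, Hcrt, Nmb, Oxt and Pmch. Most of these 6 are best known from the hypothalamus. Pomc (2.63 FPKM, 0.693 FPKM and 1.24 FPKM) and Cartpt (2.27 FPKM, 4.07 FPKM and 1.19 FPKM) were among the low members.

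Markers of the interneuron classes differed widely in level. Pvalb, the calcium buffer of fast-spiking interneurons, measured 25.2 ± 3.18 FPKM, and the ratio of Sst to Pvalb was 37.5, 33.6 and 27.4 in the 3 libraries. Lamp5 (74.7 ± 8.86 FPKM), found in neurogliaform cells, lay above Pvalb, Reln (34.8 ± 9.34 FPKM) overlapped it, and Vip (5.93 ± 2.16 FPKM) and Htr3a (1.06 ± 0.140 FPKM) lay below Pvalb. Chodl, a marker of a rare class of Sst neurons, was at 0.111 ± 0.193 FPKM. Peptide genes such as Sst, Cck and Npy are expressed at very high levels in the cells that have them, and Cck and Lamp5 are also expressed in pyramidal neurons, so the order of these RNAs is not an order of cell numbers.

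Pyramidal neuron markers of upper and deep layers were all at 1 FPKM or more, which does not set these lists apart. All 12 astrocyte genes, 11 of 12 microglia genes and 11420 of 21697 protein-coding genes reached that level too. All 9 upper layer genes and all 15 genes of layers 5 and 6 had a mean of 1 FPKM or more, with medians of 39.9 FPKM and 11.0 FPKM. Cux2, a transcription factor of the upper layers, measured 35.9 FPKM, 43.9 FPKM and 40.0 FPKM, and Mef2c, a broader transcription factor, 172 ± 17.1 FPKM. In the deep layers Bcl11b, a transcription factor of layer 5 projection neurons and of medium spiny neurons, measured 25.2 FPKM, 32.7 FPKM and 48.6 FPKM. Pcp4 (79.9 ± 25.2 FPKM), Crym (52.9 ± 5.98 FPKM), Fezf2 (11.0 ± 1.88 FPKM) and Foxp2 (1.88 ± 0.141 FPKM) were further members of the list. The 2 lists differ in the genes they hold, so their medians do not compare the layers.

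Markers of glia were present, with list medians below that of the pan-neuronal list in every library. The median of the pan-neuronal list was 197 FPKM, 193 FPKM and 200 FPKM in replicates 1, 2 and 3. The median was 11.1 FPKM, 10.5 FPKM and 8.03 FPKM for astrocytes, 4.86 FPKM, 5.83 FPKM and 5.89 FPKM for oligodendrocytes, and 4.90 FPKM, 2.96 FPKM and 3.06 FPKM for microglia. The pan-neuronal median was 20.4 ± 3.96 times the astrocyte median and 35.9 ± 4.02 times the oligodendrocyte median. Taken over gene means, the median was 23.4 FPKM for the excitatory neuron list and 16.7 FPKM for the inhibitory neuron list. Both lay closer to that of the astrocyte list (9.57 FPKM). The ratios thus depend on which genes a list holds and do not measure neuron against glia content. The list medians include members below 1 FPKM. Over the 24947 genes above 0 in at least 1 library the median was 1.26 FPKM, and over the 13072 genes at 1 FPKM or more it was 8.65 FPKM.

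The glial lists were carried by a few members. Slc1a2, the glutamate transporter of astrocytes, measured 96.7 FPKM, 110 FPKM and 89.4 FPKM, Atp1b2 was at 42.0 ± 6.76 FPKM and Aldoc at 35.7 ± 8.13 FPKM, while Gfap, the intermediate filament of astrocytes, measured 12.8 ± 0.919 FPKM and Aqp4, the water channel of their endfeet, 7.67 ± 0.555 FPKM. Snap25 was 11.2 ± 1.57 times Slc1a2. The myelin genes Mbp (22.2 FPKM, 45 FPKM and 46.4 FPKM) and Mobp (20.7 FPKM, 30.2 FPKM and 30.5 FPKM) were lowest in replicate 1. The myelinating cell markers Opalin (0 FPKM, 2.03 FPKM and 0.766 FPKM) and Aspa (0.342 ± 0.333 FPKM) had means below 1 FPKM. The other 10 of the 12 oligodendrocyte genes had means of 1 FPKM or more. Among them were Mal (14.4 ± 1.66 FPKM), Cnp (13.5 ± 2.58 FPKM) and Mog (3.23 ± 0.687 FPKM). Of the 8 oligodendrocyte precursor genes 4 reached 1 FPKM, led by Pdgfra (4.31 ± 2.71 FPKM).

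Microglial genes were present at low levels in all libraries. Ctss, a lysosomal protease, measured 21.4 ± 5.81 FPKM and C1qb, a complement subunit, 8.54 ± 0.505 FPKM. The homeostatic markers P2ry12 (6.47 FPKM, 1.31 FPKM and 1.07 FPKM), Cx3cr1 (1.93 ± 0.841 FPKM) and Tmem119 (1.13 ± 0.688 FPKM) were lower, and Trem2 did not reach a mean of 1 FPKM (0.560 ± 0.495 FPKM). P2ry12 was the highest in replicate 1, which for most endothelial genes was the lowest library.

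Vascular genes were mostly the highest in replicate 2, as were 10 of the 16 interneuron class genes at 1 FPKM or more. Flt1, a receptor for vascular endothelial growth factor, measured 3.70 FPKM, 17.3 FPKM and 8.91 FPKM, and Tek, the angiopoietin receptor, 0.317 FPKM, 4.88 FPKM and 1.92 FPKM. Both were the highest in replicate 2 and the lowest in replicate 1. Of the 11 endothelial genes at 1 FPKM or more, 10 were highest in replicate 2, as were all 6 pericyte and smooth muscle genes at that level, beside 31.0% of all genes. The endothelial Kdr (0.592 FPKM, 3.48 FPKM and 1.34 FPKM) and the smooth muscle gene Tagln (0.300 FPKM, 2.64 FPKM and 0.146 FPKM) reached that mean only through replicate 2. The endothelial gene not highest in replicate 2 was Bsg (179 FPKM, 146 FPKM and 164 FPKM), a membrane protein that many other cells express. Rgs5, a pericyte gene, measured 4.90 FPKM, 18.9 FPKM and 12 FPKM.

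Blood cell RNA was also detected. The haemoglobin gene Hba-a2 measured 27.5 FPKM, 70.5 FPKM and 47.1 FPKM and Hba-a1, a near-identical copy that can share reads with it, 22.0 FPKM, 52.7 FPKM and 37.8 FPKM. Igkc, the kappa light chain constant region of plasma cells, measured 27.2 FPKM, 30.6 FPKM and 53.0 FPKM, Jchain 4.72 ± 0.216 FPKM, and Cd79a, a B cell marker, 0.0432 ± 0.0748 FPKM. The ependymal and choroid plexus markers Foxj1 (0.158 ± 0.109 FPKM), Ttr (0.209 ± 0.361 FPKM), Folr1 and Ccdc153 (both listed at 0 throughout) were near or at 0, and Enpp2 (50.5 ± 4.36 FPKM), which oligodendrocytes also express, was the member of that list above 1 FPKM. The part of free or unspecifically bound RNA in these glial, vascular and blood levels was not tested.

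**Figure D3:**
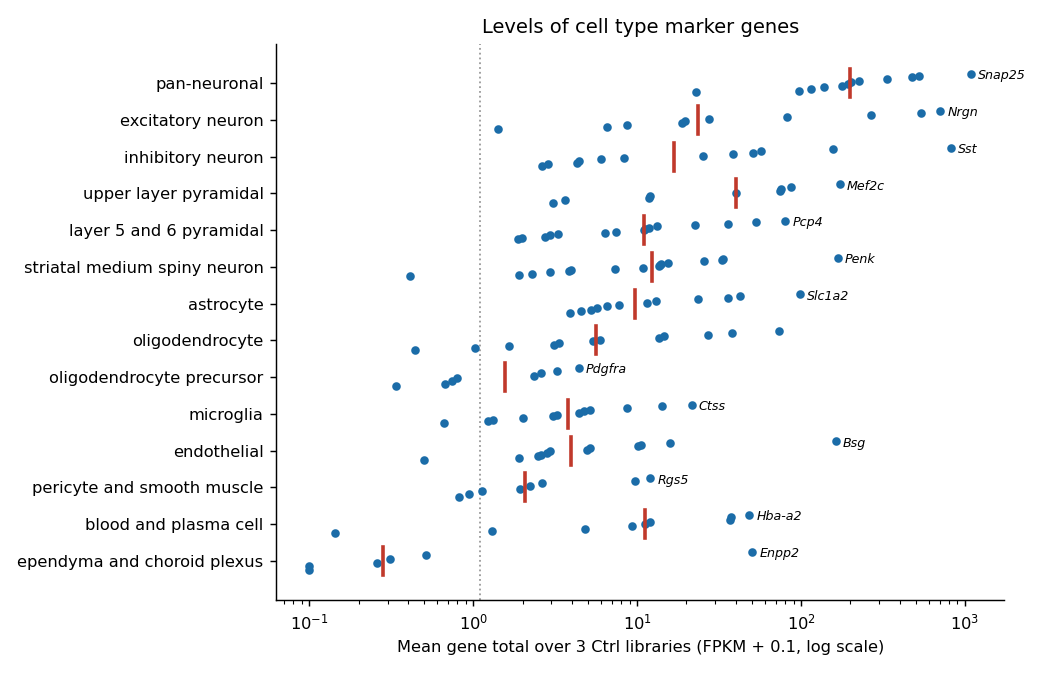
Mean gene totals (FPKM + 0.1, log scale) of the members of 14 cell type marker lists in Ctrl, each point a gene, with the red bar at the list's median, the name of its highest member in most rows and a dotted line at 1 FPKM. Pan-neuronal genes had the highest median of the lists (198 FPKM), and ependymal and choroid plexus genes the lowest, with 5 of 6 members under 1 FPKM.

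Of 138 receptor genes examined, 86 had a mean of 1 FPKM or more, beside 11420 of 21697 protein-coding genes. The counts for single receptor families below are to be set beside that same share. Ionotropic glutamate receptors, which carry fast excitation, were among the highest. The AMPA receptor subunit gene Gria2, whose product limits calcium entry, measured 144 FPKM, 103 FPKM and 139 FPKM and Gria1 108 FPKM, 108 FPKM and 125 FPKM, and these overlapped. Both lay above Gria3 (63.0 ± 6.82 FPKM), which lay above Gria4 (25.9 ± 4.97 FPKM), with no overlap between neighbours in that part of the order.

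The NMDA receptor genes were led by the obligatory subunit Grin1 (98.0 FPKM, 106 FPKM and 122 FPKM). Grin2b (66.7 ± 7.88 FPKM), the subunit that dominates early in development, and Grin2a (64.8 ± 4.61 FPKM), which rises with maturation, could not be separated, and the ratio of Grin2a to Grin2b was 1.01, 0.987 and 0.927 in the 3 libraries. Grin3a measured 10.5 ± 1.98 FPKM, Grin2d and Grin2c measured 1.94 ± 0.883 FPKM and 1.35 ± 0.854 FPKM, and Grin3b was listed at 0. Of the kainate and delta subunits, all 7 were present, led by Grik5 at 27.4 ± 1.26 FPKM, Grik3 at 14.2 ± 1.67 FPKM and Grid1 at 12.2 ± 0.529 FPKM.

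Metabotropic glutamate receptors were ordered with little spread. Grm5 (64.5 ± 2.86 FPKM), which signals through Gq, was followed by the Gi-coupled Grm3 (29.3 ± 1.74 FPKM), and Grm7 (14.1 ± 0.486 FPKM) was lower. No neighbours in the order of the 8 members overlapped in their 3 values. Grm6, the receptor of retinal bipolar cells, was listed at 0 in all libraries.

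For inhibition, the GABA-B receptor subunits Gabbr1 (158 ± 22.2 FPKM) and Gabbr2 (97.0 ± 11.5 FPKM) had the highest means. In the GABA-A family Gabrb2, which encodes a beta subunit of the common synaptic receptor, measured 43.6 FPKM, 48.4 FPKM and 54.3 FPKM. The extrasynaptic subunit genes Gabrd (18.8 ± 1.67 FPKM) and Gabra5 (13.1 ± 4.29 FPKM) were lower. Gabra6, typical of cerebellar granule cells, Gabrp, Gabrr1 and Gabrr3 were listed at 0 in all 3. Glrb, the glycine receptor beta subunit that also binds gephyrin, measured 43.4 ± 2.72 FPKM and Glra1, the spinal cord alpha subunit, 0.232 ± 0.119 FPKM.

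The leading receptors for modulators were lower than the leading AMPA, NMDA and GABA receptor genes. The muscarinic receptors Chrm1 (26 FPKM, 35.9 FPKM and 38.9 FPKM) and Chrm3 (25.8 ± 2.27 FPKM) led the cholinergic set, followed by the nicotinic subunit Chrna7 (10.2 ± 0.940 FPKM). Of 18 acetylcholine receptor genes 7 reached 1 FPKM, and the nicotinic subunit genes Chrna9, Chrna10, Chrna6 and Chrnb4 were listed at 0. Among adrenergic receptors Adrb1 measured 12.6 ± 2.19 FPKM, Adra1a 5.33 ± 2.49 FPKM and Adra1d 3.93 ± 1.13 FPKM.

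Among serotonin receptors Htr2a, the target of hallucinogens and of many antipsychotic drugs, was the highest at 6.70 FPKM, 8.95 FPKM and 7.29 FPKM. Htr1b (5.28 ± 1.15 FPKM) and Htr5a (3.0 ± 0.988 FPKM) followed, 7 of 14 genes reached a mean of 1 FPKM, and Htr5b was listed at 0. The cannabinoid receptor Cnr1, which is dense in Cck interneurons, measured 25 ± 5.79 FPKM and Adora1 13.5 ± 1.16 FPKM. Oprl1, the nociceptin receptor, measured 4.55 FPKM, 10.2 FPKM and 15.1 FPKM, and so was ordered across the libraries as Drd2 was. Of the peptide and histamine receptors 16 of 30 were present, with Cckbr (17.0 ± 1.53 FPKM), Adcyap1r1 (16.4 ± 3.06 FPKM) and Hrh3 (7.74 FPKM, 11.9 FPKM and 16.7 FPKM) the highest.

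Ion channel genes were mostly detected, with 80 of 95 at 1 FPKM or more, beside 11420 of 21697 protein-coding genes. Scn2a, the sodium channel alpha subunit of pyramidal neuron axons, measured 122 FPKM, 115 FPKM and 125 FPKM. Scn8a, which supports repetitive firing, was at 0.521 ± 0.0297 of Scn2a and Scn1a, the alpha subunit of fast-spiking interneurons, at 0.134 ± 0.0246 of it. The auxiliary subunit gene Scn2b (74.2 ± 7.46 FPKM) lay between Scn2a and Scn8a. The muscle and sensory neuron genes Scn4a, Scn10a and Scn11a were listed at 0. Scn4b, which is enriched in striatum, measured 2.64 FPKM, 5.33 FPKM and 9.05 FPKM.

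Calcium channel genes were led by the auxiliary subunits Cacnb3 (81.1 ± 5.69 FPKM), Cacna2d1 (62.2 ± 3.61 FPKM) and Cacnb1 (62.1 ± 9.59 FPKM). Of the pore-forming subunits the R-type Cacna1e (50.7 ± 9.48 FPKM) was the highest, and the N-type Cacna1b (27.9 ± 5.48 FPKM) and P/Q-type Cacna1a (25.1 ± 3.57 FPKM), which trigger transmitter release, overlapped. Cacna1f of the retina was listed at 0. Among potassium channels Kcnab2, an auxiliary subunit, was the highest at 84.3 ± 13.9 FPKM, and 30 of the 32 voltage-gated members were present.

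The inward rectifiers Kcnj4 (48.8 ± 3.86 FPKM) and Kcnj9 (39.6 ± 1.33 FPKM) and the leak channel Kcnk1 (31.6 ± 3.35 FPKM) were ordered without overlap. Kcnj9 encodes a GIRK channel, through which Gi-coupled receptors such as D2 can reduce firing. Kcnma1, the calcium-activated BK channel, measured 39.2 ± 5.77 FPKM, and the pacemaker channel Hcn2 measured 18.9 ± 4.45 FPKM, against 0.528 ± 0.494 FPKM for Hcn4.

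**Figure D4:**
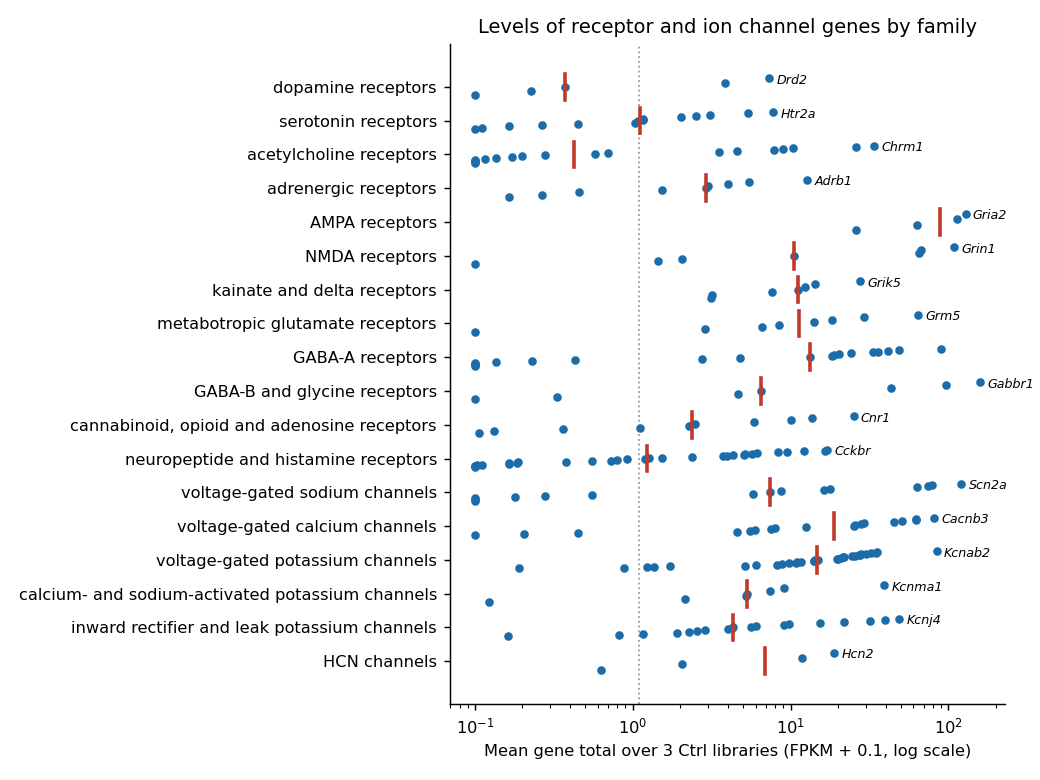
Mean gene totals (FPKM + 0.1, log scale) of receptor and ion channel genes in Ctrl by family, each point a gene, with the red bar at the family's median, the name of its highest member in most rows and a dotted line at 1 FPKM. AMPA receptor genes had the highest family median (88.3 FPKM) and dopamine receptor genes the lowest (0.274 FPKM), with Drd2 and Drd1 the dopamine receptors above the line.

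The deposited values are given per transcript, so the splice forms behind these gene totals could be read as far as the estimate divides reads between them. Of 9052 genes with more than 1 listed transcript and a mean of 1 FPKM or more, 5602 (61.9%) had the same leading transcript in all 3 libraries. This share was 80.2% for genes with 2 listed transcripts and 38.9% for genes with 10 or more, and it was 55.3% for genes at 1 to 10 FPKM and 80.5% for genes above 100 FPKM. Pairs of libraries had the same leading transcript for 70.6% to 75.5% of the genes. Within protein-coding genes, transcripts with the protein-coding biotype held 92.5 ± 0.506% of FPKM, retained-intron transcripts 3.57 ± 0.234% and nonsense-mediated decay transcripts 1.64 ± 0.162%.

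Of 28 genes with well known splice forms, 26 had more than 1 listed transcript and 17 of these kept their leading transcript in the 3 libraries. For Drd2 a single transcript was listed, which codes for 444 residues and is the long form, so the long and short forms of the receptor could not be told apart. App likewise had a single listed transcript, of 695 residues, the neuronal form. In the following, the share of an exon is the FPKM of the transcripts that include it as a percentage of the FPKM of the transcripts that include or skip it.

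Snap25 uses either exon 5a or exon 5b, which code for the same stretch of the protein and differ in 31 of 118 bases. They are shown because they give the clearest choice between exons in these libraries, on the plus strand of GRCm38 at chr2:136769743-136769860 and chr2:136770057-136770174, with the bases that differ in capitals. Exon 5b, the adult form, had a share of 88.4%, 88.2% and 87.2% in replicates 1, 2 and 3.
Snap25 exon 5a: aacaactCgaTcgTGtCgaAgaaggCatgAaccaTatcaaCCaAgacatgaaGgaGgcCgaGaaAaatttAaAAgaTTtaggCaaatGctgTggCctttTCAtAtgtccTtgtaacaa
Snap25 exon 5b: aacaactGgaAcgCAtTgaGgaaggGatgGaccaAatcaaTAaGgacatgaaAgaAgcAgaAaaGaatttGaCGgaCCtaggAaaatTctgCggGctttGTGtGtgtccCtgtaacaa

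Pkm, the pyruvate kinase gene, likewise uses either the exon of the M1 form or that of the M2 form, of 167 bases each, with 64 bases different. M1 is the form of differentiated tissue and M2 that of proliferating cells and glia. The M1 exon held 96.3%, 84.5% and 85.8% of Pkm in replicates 1, 2 and 3, so replicate 1 had the least of the M2 exon (3.71%, against 15.5% and 14.2%). Both exons lie on the plus strand, at chr9:59675029-59675195 and chr9:59675568-59675734, and the capitals again mark the bases that differ.
Pkm M1 exon: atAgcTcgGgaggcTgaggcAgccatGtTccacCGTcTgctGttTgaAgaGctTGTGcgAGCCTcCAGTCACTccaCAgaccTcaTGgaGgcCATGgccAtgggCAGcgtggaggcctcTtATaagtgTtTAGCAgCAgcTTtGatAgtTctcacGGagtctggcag
Pkm M2 exon: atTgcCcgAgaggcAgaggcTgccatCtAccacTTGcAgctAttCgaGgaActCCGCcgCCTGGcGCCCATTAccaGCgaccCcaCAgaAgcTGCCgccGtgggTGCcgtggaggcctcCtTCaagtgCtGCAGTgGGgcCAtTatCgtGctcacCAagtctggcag

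The AMPA receptor genes use a flip or a flop exon, which sets how fast the receptor desensitises. The pair of Gria2, the gene of the family with the highest mean, is shown from the minus strand of chr3:80690404-80690518 (flip) and chr3:80691320-80691434 (flop), with the 36 of 115 bases that differ in capitals. The flip exon held 66.7%, 48.5% and 52.9% of Gria2 in the 3 libraries, so it was the larger share in replicates 1 and 3 and the smaller in replicate 2. For Gria1 the flip share was 84.3% and 89.3% in replicates 1 and 3 and 46.4% in replicate 2, so the leading form differed between libraries. Gria4 had 61.4%, 49.8% and 43.5%, and in Gria3 the flip exon was the minor form at 14.3 ± 1.37%.
Gria2 flip exon: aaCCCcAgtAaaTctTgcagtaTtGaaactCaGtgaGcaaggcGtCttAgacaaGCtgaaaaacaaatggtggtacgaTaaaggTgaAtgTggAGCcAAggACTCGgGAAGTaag
Gria2 flop exon: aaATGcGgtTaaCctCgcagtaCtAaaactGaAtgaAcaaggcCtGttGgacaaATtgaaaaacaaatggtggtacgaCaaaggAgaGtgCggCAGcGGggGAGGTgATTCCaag

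Other cassette exons alter a receptor and a kinase. They are shown with the exon in capitals and 20 bases of the neighbouring exons on each side in lower case. Gsk3b can include a 39-base exon (chr16:38217113-38217151, plus strand) that gives the form enriched in brain. Grin1 can include an N-terminal exon of 63 bases (chr2:25311343-25311405, minus strand) and the C1 exon of 111 bases (chr2:25294438-25294548, minus strand), which carries signals for retention and surface delivery.
Gsk3b neuronal insert: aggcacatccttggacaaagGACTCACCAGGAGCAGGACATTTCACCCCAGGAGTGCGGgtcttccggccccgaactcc
Grin1 N-terminal exon: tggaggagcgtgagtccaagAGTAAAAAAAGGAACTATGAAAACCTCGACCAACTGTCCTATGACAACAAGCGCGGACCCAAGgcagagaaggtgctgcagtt
Grin1 C1 exon: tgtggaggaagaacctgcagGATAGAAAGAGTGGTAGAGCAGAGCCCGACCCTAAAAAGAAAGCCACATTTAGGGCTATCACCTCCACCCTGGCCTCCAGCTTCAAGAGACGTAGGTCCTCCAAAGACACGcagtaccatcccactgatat

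The neuronal insert of Gsk3b held 5.22% in replicate 1, 35.0% in replicate 2 and 35.6% in replicate 3. The transcript without it measured 33.5 FPKM, 34.7 FPKM and 36.2 FPKM, so the lower Gsk3b total of replicate 1 lay in the transcript with the insert, at 1.85 FPKM, 18.7 FPKM and 20.03 FPKM. The annotated transcripts differ also in length, at 8303 bases without and 1750 bases with the insert, and the same FPKM from a shorter transcript rests on fewer fragments. In Grin1 the N-terminal exon held 88.8%, 92.8% and 93.8% and the C1 exon 51.2%, 51.1% and 54.9%, and these shares differed little between libraries.

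Among the remaining genes the clathrin light chain gene Cltb included its neuronal exon at 91.8 ± 1.04%, while the corresponding exons of Clta were included at 28.5 ± 4.17% and 27.4 ± 4.50%. Gnas included its long-form exon at 92.6 ± 2.52%. For Mapt, which encodes tau, the N-terminal inserts held 52.3% and 46.9% in replicate 1 and 53.1% and 49.1% in replicate 2, but 16.7% and 11.4% in replicate 3. The large exon of Map2 that gives the high molecular weight form held 67.2%, 66.8% and 85.4%, so both cytoskeletal genes had replicate 3 apart from the other libraries.

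Full-length and truncated forms of signalling genes could also be separated. Ntrk2, the BDNF receptor gene, was mainly full-length (89.0%, 91.7% and 93.1% of the gene total), and the truncated form without the kinase, which is typical of astrocytes, measured 7.50 ± 1.16 FPKM. Homer1 had its long 366-residue form in the lead (68.6% of the gene total on average), and the short, activity-induced form of 186 residues measured 10.3 FPKM, 9.18 FPKM and 12 FPKM. Camk2a held 95.7% of its total in the 478-residue form. Dlg4, Camk2b, Cdc42, Bin1, Nrxn3 and Gnao1 kept their leading transcripts in all libraries, and Bdnf and Rpl22 did not. For Rpl22, the ribosomal protein that is tagged in these mice, the gene total was 38.2 FPKM, 39.7 FPKM and 47.7 FPKM. That total includes transcripts that are not protein-coding, so it does not give the level of the coding RNA. The main protein-coding transcript of Rpl22 measured 23.8 FPKM, 18.6 FPKM and 4.09 FPKM in replicates 1, 2 and 3. A processed transcript without coding bases held 18.9%, 7.55% and 58.6% of the total, and led in replicate 3.

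**Figure D5:**
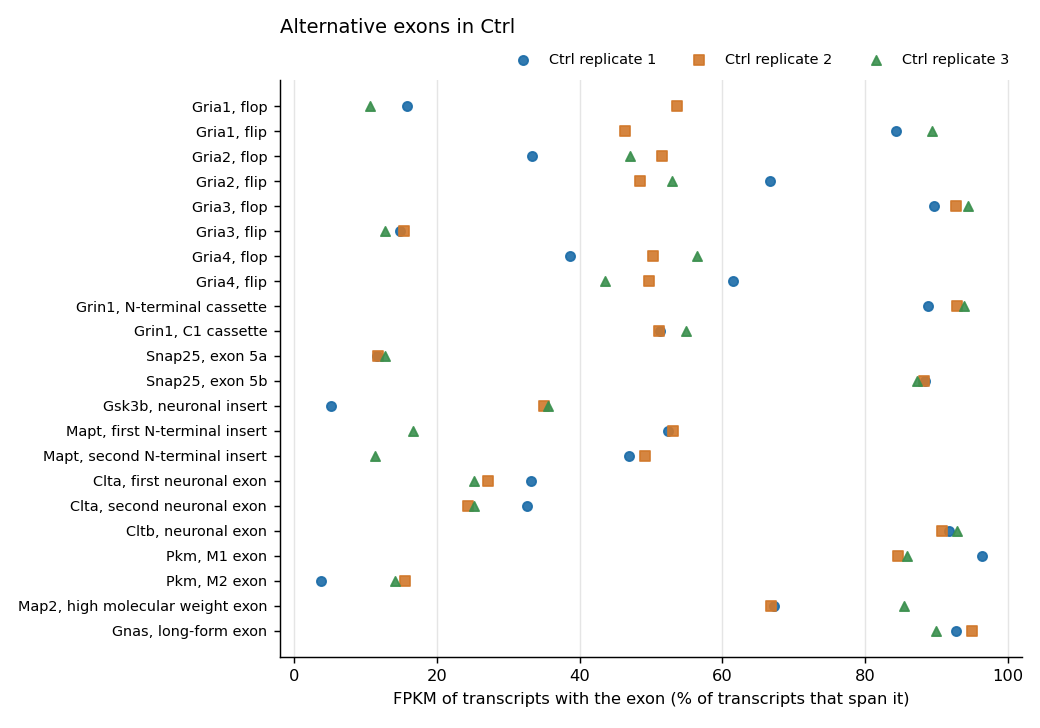
Share of alternative exons in Ctrl (horizontal axis, FPKM of transcripts with the exon as a percentage of the transcripts that span it), each symbol a library. The shares of Snap25, Cltb and the Grin1 exons lay close together in the 3 libraries, while those of Gria1, Gsk3b and Mapt had a library apart from the other pair.

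The genes with the largest and smallest spread are given for the 5593 protein-coding genes at a mean of 10 FPKM or more. Rgs17, a regulator of Gi-coupled signalling, had the largest coefficient of variation (122%), with 4.91 FPKM, 9.16 FPKM and 56.2 FPKM in replicates 1, 2 and 3. Pcdh7, a protocadherin, was likewise the highest in replicate 3 (10.6 FPKM, 14.6 FPKM and 46.0 FPKM). The predicted genes Gm10800 and Gm21738, and Fsd1l, Snrnp35, Rnf8 and Txlna, were the highest in replicate 1, mt-Nd4l in replicate 2 (0.0993 FPKM, 93.7 FPKM and 54.1 FPKM), and the histone gene Hist2h2aa1 was listed at 0 in replicate 2 and in replicate 1 at 34.9 FPKM. At the other end, Tagln3 measured 234 FPKM, 234 FPKM and 233 FPKM, and Actr3b, Stim1, Hnrnph2 and Lysmd2 also differed by a coefficient of variation of 0.505% or less.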

How the data were processed

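Libraries were assigned to groups and replicate numbers from the submitters' titles, and only the 3 Ctrl libraries were used. The authors deposited FPKM values per transcript and library, and per the labels these were made from stranded total RNA libraries with HISAT2 2.1.0, SAMtools 1.9 and StringTie 1.3.4d on GRCm38 (submitters' processing notes). Settings of these tools: not given in the sources used here. Library totals are not in the table. The spacing of low values gave at best 45.1, 63.7 and 46.9 M fragments in replicates 1, 2 and 3, but only 27.6%, 40.1% and 45.5% of those values lay within 0.05 of a whole fragment (10.0% for unrelated values), and a depth smaller by a factor of 2 could not be told apart. Depth was therefore treated as unknown and no counting interval is given. The authors also deposited a ratio (fold change), p-values and q-values of their own comparison, which were not used.

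Here FPKM was summed over the transcripts of each gene identifier, and mean, SD and coefficient of variation were taken over the 3 libraries. With 1 group of libraries no test was made, and neighbours in an order of levels are called separate where their 3 values did not overlap. Transcript lengths, biotypes, exons and sequences came from GENCODE M21 (GRCm38), to which 114237 transcripts matched and 983 did not. Of 490 list entries 489 matched, 3 of them through the gene identifier. The members and gene lists were chosen with earlier results of these data known. Named genes were the 20 highest protein-coding and 5 highest other genes, the 3 highest, the defining and the absent members of each list, the genes with known splice forms, and the 10 most and 5 least variable protein-coding genes at 10 FPKM or more. Some genes are not reported here. Further list members were named after their values were seen. FPKM corrects for length, so levels can be set beside each other between genes, apart from short RNAs. Those reach a high FPKM from few fragments, as the miRNA loci above did. The division of reads between overlapping transcripts is an estimate. The scripts were tested on simulated data. Python 3.11.15, pandas 2.3.3 and numpy 2.4.6 were used. Alternatives covered each library left out, scaling, thresholds, transcript biotypes and the list summary.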

Additional observations from a re-analysis of the deposited data

How the results depend on the processing

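Of 39 alternative values 32 stayed within the stated limits (1 SD of the libraries for a value, 1.5 times for a count). For a value, leaving out a library cannot move the mean of these 3 libraries by as much as their SD. Those alternatives were therefore within the limit by construction. So was Drd2 with protein-coding transcripts only, because a single Drd2 transcript was listed. The count of 32 thus does not measure how firm these values are. The number of genes at 1 FPKM or more (13072) became 8592 at a threshold of 5 FPKM. The ratio of the pan-neuronal to the astrocyte list (20.4) became 14.1 with summed levels and 2.04 with means of log2(FPKM + 1), and the ratio to the oligodendrocyte list (35.9) became 19.96 and 2.57 in the same way and 41.5 with protein-coding transcripts only. The share of RNA from genes that are not protein-coding (42.7% of summed FPKM) became 5.97% of estimated fragments. In each of these cases the alternative sets another quantity or set of transcripts.

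Leaving out each library in turn gave 12887 to 13170 genes at 1 FPKM or more, a Drd2 mean of 3.80 to 10.05 FPKM, a ratio of Slc17a7 to the sum of Gad1 and Gad2 of 1.11 to 1.60, list ratios of 18.1 to 21.7 (astrocyte) and 33.6 to 37.3 (oligodendrocyte), 6323 to 6901 genes with a shared leading transcript and 38.5% to 49.3% of RNA that is not protein-coding. The Drd2 mean is the value that turns on single libraries: it was 3.80 FPKM without replicate 3, 7.83 FPKM without replicate 2 and 10.05 FPKM without replicate 1. Rescaling was tried on the order of the libraries after the data were seen: by the median ratio, 13 of 15 medium spiny neuron genes were highest in replicate 3, and 9 in place of 12 were lowest in replicate 1, beside 32.4% and 40.2% of all genes. No paired analysis was possible because a single group of libraries was described and no result comes from a test. With 3 libraries, no input RNA and unknown depth, neither enrichment in D2 cells nor counting error could be given.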
